A study of Mus musculus with 7 samples.

Results

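The fibrillar collagen genes were followed over postnatal growth in mouse gastrocnemius, the large calf muscle of mainly fast fibers. The members are the 9 genes Col1a1, Col1a2, Col3a1, Col5a1, Col5a2, Col5a3, Col11a1, Col24a1 and Col27a1, chosen by symbol from a count table of 49568 gene symbols. All 9 passed the filter on low counts, and each symbol stood once in the table. The muscles were from male mice of the strain C57BL/6J, 2 mice aged 4 weeks, 2 aged 6 weeks and 3 aged 8 weeks, with 1 RNA-seq library made from each after removal of ribosomal RNA. The titles of the 8-week libraries carry the word Ctl, which those of the 4-week and 6-week libraries do not. The study used that word for littermates without CreER, and the labels do not say whether the 8-week mice were such animals or were given tamoxifen. Genotype or treatment and age can therefore not be told apart at 8 weeks.

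Fibrillar collagens are the rope-like proteins of connective tissue. Each molecule is a triple helix in which every chain repeats glycine and 2 further residues, because only glycine is small enough for the inside of the helix. Type I collagen, made of the chains of Col1a1 and Col1a2, forms the thick tension-bearing fibrils of tendon and of the sheaths around muscle fibers, and type III collagen, the product of Col3a1, forms finer, more extensible ones. Types V and XI sit within or start these fibrils and set their width. The chains of types XXIV and XXVII have shorter helices and are known best from bone and cartilage.

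The repeat is visible in the genes. A helix exon of 54 bases is read as 6 glycine triplets, each codon for glycine followed by 6 bases, and the members held 21 (Col1a1) to 33 (Col24a1 and Col27a1) exons of that length in their longest coding transcript. The median of 21877 protein-coding genes was 0 such exons, and 13 genes had 21 or more, among them all 9 members and the other fibrillar collagen genes Col2a1 and Col11a2. The first 54-base exon inside the long helix of each member is shown because it carries the feature that defines the family. Capitals mark the glycine codon (GGN) that opens each triplet of the repeat, and a further glycine within a triplet stays in lower case. The sequences are read 5′ to 3′ on the coding strand of GRCm38.

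Col1a1, exon 8 of 51, chr11:94939904-94939957, plus strand: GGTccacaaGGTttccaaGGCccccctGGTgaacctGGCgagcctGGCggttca
Col1a2, exon 8 of 52, chr6:4515481-4515534, plus strand: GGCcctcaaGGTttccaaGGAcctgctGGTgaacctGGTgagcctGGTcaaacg
Col3a1, exon 6 of 51, chr1:45325360-45325413, plus strand: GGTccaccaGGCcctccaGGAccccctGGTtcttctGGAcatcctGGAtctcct
Col5a1, exon 15 of 66, chr2:27965251-27965304, plus strand: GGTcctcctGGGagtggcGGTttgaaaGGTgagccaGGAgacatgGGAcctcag
Col5a2, exon 10 of 54, chr1:45422386-45422439, minus strand: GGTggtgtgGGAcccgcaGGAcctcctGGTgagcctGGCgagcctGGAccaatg
Col5a3, exon 15 of 67, chr9:20801068-20801121, minus strand: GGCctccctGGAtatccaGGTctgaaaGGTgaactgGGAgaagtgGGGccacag
Col11a1, exon 15 of 67, chr3:114108281-114108334, plus strand: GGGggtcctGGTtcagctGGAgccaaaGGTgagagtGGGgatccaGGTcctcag
Col24a1, exon 7 of 60, chr3:145328731-145328784, plus strand: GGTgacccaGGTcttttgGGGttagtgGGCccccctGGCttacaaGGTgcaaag
Col27a1, exon 7 of 61, chr4:63245069-63245122, plus strand: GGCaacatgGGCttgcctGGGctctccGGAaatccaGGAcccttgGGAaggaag

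The longest unbroken run of glycine triplets was 337 to 344 in 7 members, and 216 in Col24a1 and 217 in Col27a1. Most of these genes lie apart, but Col3a1 (chromosome 1, 45311538 to 45349706) and Col5a2 (chromosome 1, 45374321 to 45503282) are neighbours on opposite strands. Reads were counted by strand, and no member shared exons on its own strand with another gene except Col3a1, of which 141 bases also belong to Gm47302.

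The libraries held 30836057 to 41784144 counts, and 25.1% to 37.4% of these fell on mt-Rnr2, a ribosomal RNA of mitochondria. That share was lowest in 8 weeks replicate 2. Muscle fiber markers were abundant in every library (CPM, counts relative to the library total after TMM scaling). Their sum over 11 genes was 177175 to 198767 CPM at 4 weeks, 199952 to 207459 CPM at 6 weeks and 235291 to 266609 CPM at 8 weeks, higher at each later age without overlap. Ttn had the most counts of the 11 in every library, and no marker was called higher by edgeR in any comparison. With log2 CPM of each gene taken relative to its mean over the 7 libraries, the median of the 11 overlapped between ages. It was −0.062 and −0.059 at 4 weeks, −0.016 and 0.0047 at 6 weeks, and −0.024, 0.181 and −0.102 at 8 weeks. The part of the fiber markers in the collagen values below was not tested. The median log2 fold change of all 14976 genes tested lay between −0.01 and 0.02 in the comparisons below. Without TMM, scaling by library totals moved it to −0.20 for 8 against 4 weeks and −0.17 for 8 against 6 weeks.

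The 9 genes together took 0.389% and 0.435% of all counts at 4 weeks, 0.176% and 0.251% at 6 weeks, and 0.130%, 0.157% and 0.0869% at 8 weeks. The share was thus lower in every older library than in either 4-week library, although 6 weeks replicate 1 and 8 weeks replicate 2 lay close to each other. Of the counts without mt-Rnr2, the share was 0.259% in 6 weeks replicate 1 and 0.210% in 8 weeks replicate 2. In such bulk samples, fewer connective tissue cells and less collagen mRNA per cell cannot be told apart.

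**Figure D1:**
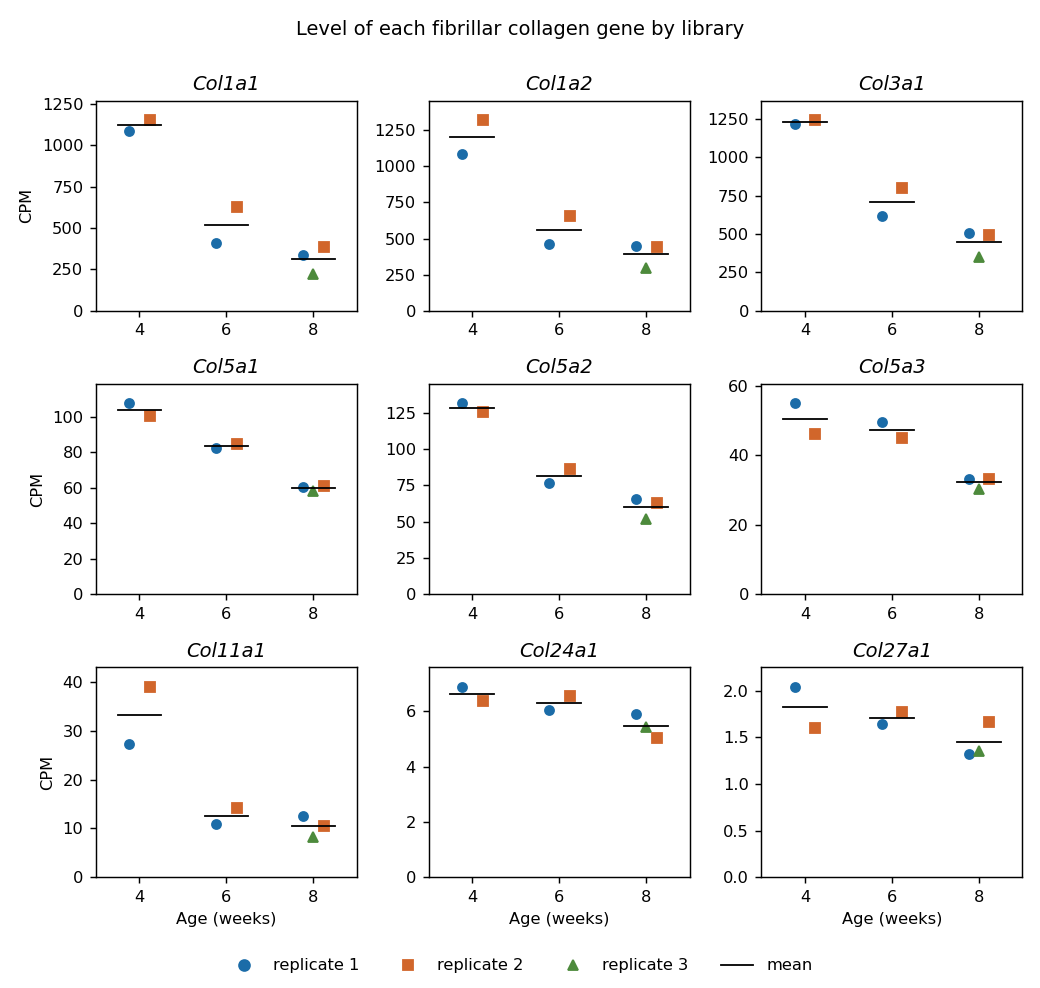
CPM of each of the 9 genes by age in weeks, 1 point for each of the 7 libraries, marker shape for the replicate number and a line for the mean of the age. Each panel has its own axis from 0. Col1a1 ran between 1089 and 1154 CPM at 4 weeks and between 219 and 384 CPM at 8 weeks, while Col24a1 stayed between 5.05 and 6.90 CPM in all 7 libraries.

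Levels of different genes can be set side by side only per length. Per kb of exon (union of all annotated exons), Col1a1 averaged 171 ± 6.99 at 4 weeks (SD, n = 2), 79.0 ± 23.1 at 6 weeks (SD, n = 2) and 47.6 ± 12.9 CPM per kb at 8 weeks (SD, n = 3). Col27a1, at the other end, averaged 0.140 ± 0.0241 (SD, n = 2), 0.131 ± 0.00701 (SD, n = 2) and 0.111 ± 0.0146 CPM per kb (SD, n = 3) at these ages. The members therefore span about 3 orders of magnitude. Col1a1, Col3a1 and Col1a2 held the top ranks in every library, followed by Col5a1, Col5a2 and Col5a3, then by Col11a1 and Col24a1, with Col27a1 at the bottom. Neighbours within these steps changed places between libraries, namely Col1a1 with Col3a1, Col5a1 with Col5a2, and Col11a1 with Col24a1. At 4 weeks the values of each pair did not overlap, with 2.61 ± 0.651 for Col11a1 and 0.871 ± 0.0488 CPM per kb for Col24a1 (SD, n = 2 each). Col1a1 overlapped with Col3a1, and Col11a1 with Col24a1, at 6 and 8 weeks, and Col5a1 overlapped with Col5a2 at 8 weeks. Scaled by the longest transcript, which is 5.35 kb for Col1a2 against 12.4 kb for its union of exons, Col1a1 came below Col1a2 and Col3a1 in every library.

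**Figure D2:**
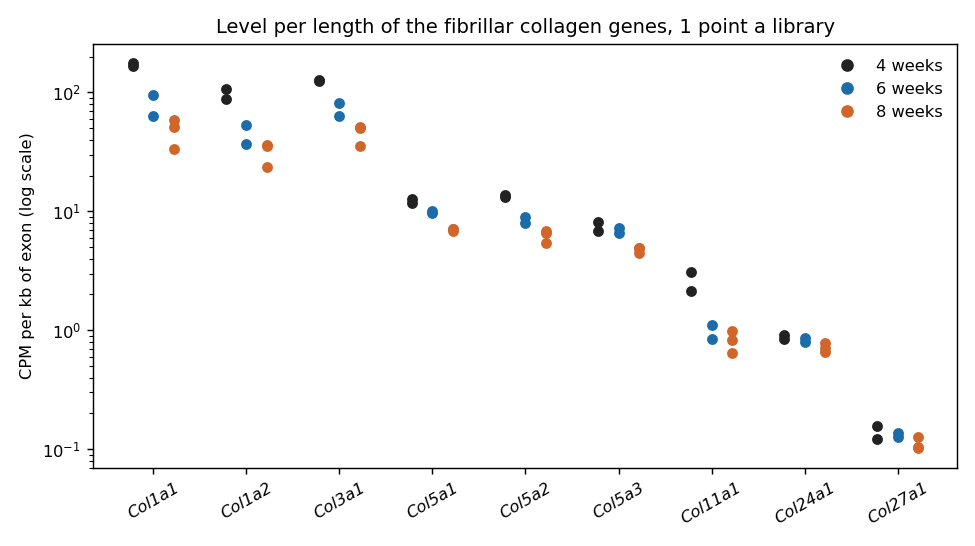
CPM per kb of exon on a log scale for each gene, 1 point a library, colored by age. Col1a1, Col1a2 and Col3a1 lie between 23.7 and 176 CPM per kb, the type V genes between 4.43 and 13.8, Col11a1 and Col24a1 between 0.642 and 3.07, and Col27a1 between 0.102 and 0.157.

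The major chains made up 90.9% and 92.0% of the summed CPM per kb of the 9 genes at 4 weeks, 85.9% and 89.2% at 6 weeks, and 87.0%, 87.7% and 83.7% at 8 weeks. The type V genes took 8.32% and 7.13% at 4 weeks, 13.2% and 9.96% at 6 weeks, and 11.8%, 11.3% and 15.0% at 8 weeks. No older library fell to the type V share of the 4-week libraries.

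Between 4 and 6 weeks, 5 of the 9 genes fell and none rose, against 3.85% of all genes tested called lower and 3.29% called higher. The genes that fell were Col1a1, Col1a2, Col3a1, Col5a2 and Col11a1 (edgeR quasi-likelihood test, adjusted over all genes). All 9 log2 fold changes were below 0, with a median of −0.66, where the median over all genes was −0.01 and 51.1% of genes lay below 0. For 6 of the 9, both 6-week libraries were below both 4-week libraries, which was so for 29.8% of all genes. Replicates of an age were not shown to come from separate litters, and p-values measure the spread between these mice.

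Col1a1, whose chain outnumbers that of Col1a2 in the common type I protein, had 412 and 626 CPM at 6 weeks, against 1089 and 1154 CPM at 4 weeks. Its log2 fold change was −1.11 (standard error 0.24, edgeR adjusted p = 0.0216). The groups did not overlap, although the 6-week pair differed by 1.52-fold. Col1a2, its partner chain, had 459 and 657 CPM at 6 weeks, against 1087 and 1323 CPM at 4 weeks, a change of the same size (−1.11, standard error 0.22, adjusted p = 0.0157). Col3a1 had 619 and 797 CPM at 6 weeks, against 1216 and 1243 CPM at 4 weeks (−0.80, standard error 0.18, adjusted p = 0.0249). All 3 genes of the large fibrils thus fell, and in each of them 6 weeks replicate 1 was the lower of its pair.

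Of the type V genes only Col5a2 was called lower, but the ratios Col5a1/Col5a2 and Col5a3/Col5a1, given below, did not pass their test. Col5a2 had 76.7 and 86.3 CPM at 6 weeks, against 132 and 126 CPM at 4 weeks (−0.66, standard error 0.12, adjusted p = 0.0146). Col5a1, the chain that is present in nearly all type V molecules, had 82.6 and 84.9 CPM at 6 weeks, against 108 and 100 CPM at 4 weeks. Its values did not overlap between the ages, but the change of −0.31 (standard error 0.10) missed the threshold (edgeR adjusted p = 0.0732). Col5a3, the chain of a less common trimer, had 49.5 and 45.0 CPM at 6 weeks, against 55.0 and 46.1 CPM at 4 weeks. These values overlapped (−0.10, standard error 0.12, adjusted p = 0.661).

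Col11a1, the minor chain that starts fibrils in cartilage and is also made in growing tendon, had the most negative change of the members. It had 10.8 and 14.2 CPM at 6 weeks, against 27.4 and 39.1 CPM at 4 weeks (−1.41, standard error 0.22, edgeR adjusted p = 0.00737). Both 6-week libraries stood well below the lower 4-week one, and the 4-week pair itself differed by 1.43-fold. Col24a1, with 6.04 and 6.54 CPM at 6 weeks, against 6.90 and 6.38 CPM at 4 weeks, overlapped between ages (−0.08, standard error 0.14, adjusted p = 0.795). So did Col27a1, with 1.64 and 1.77 CPM at 6 weeks, against 2.04 and 1.60 CPM at 4 weeks (−0.09, standard error 0.22, adjusted p = 0.846). Col27a1 had the fewest counts of the members, 42 to 77 per library.

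The count of 5 depended on single libraries and on settings. When 4 weeks replicate 1 was left out, 2 genes passed (Col11a1 and Col1a2), and when 4 weeks replicate 2 or 6 weeks replicate 1 was left out, 0 did. With no filter on low counts the count was 1. Col3a1 missed the threshold with library totals (edgeR adjusted p = 0.0550) and Col1a1 with robust edgeR (adjusted p = 0.0683), and Col5a1 passed it when only the ages compared were fitted (adjusted p = 0.0407). Col11a1 had an adjusted p of 0.0695 without 4 weeks replicate 2 and 0.0933 without 6 weeks replicate 1 by edgeR, with log2 fold changes of −1.12 and −1.23.

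Between 4 and 8 weeks, 7 of the 9 genes fell and none rose, against 8.95% of all genes called lower and 9.5% called higher. This comparison uses the same 4-week libraries as the last one. The 7 were the 5 already named together with Col5a1 and Col5a3, and the same 7 were called in each of 18 alternative settings, including the omission of any 1 library. The median log2 fold change of the members was −1.09, against −0.01 over all genes. Every 8-week library was below both 4-week libraries in 8 of the 9 members, and in 25.1% of all genes.

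Col1a1 had the most negative change of the 9 at this age. It had 334, 384 and 219 CPM at 8 weeks, against 1089 and 1154 CPM at 4 weeks (−1.84, standard error 0.21, edgeR adjusted p = 0.000418), which is 3.59-fold lower. Col1a2 had 450, 443 and 294 CPM at 8 weeks, against 1087 and 1323 CPM at 4 weeks (−1.61, standard error 0.19, adjusted p = 0.000510). Col3a1 had 505, 493 and 350 CPM at 8 weeks, against 1216 and 1243 CPM at 4 weeks (−1.45, standard error 0.16, adjusted p = 0.000327). In all 3, replicate 3 was the lowest library of the age, as it was for 7 of the 9 members.

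Col5a2 had 65.8, 63.2 and 51.9 CPM at 8 weeks, against 132 and 126 CPM at 4 weeks (−1.09, standard error 0.11, adjusted p = 0.000247). Col5a1 had 60.5, 60.8 and 57.9 CPM at 8 weeks, against 108 and 100 CPM at 4 weeks (−0.80, standard error 0.09, adjusted p = 0.000286). Col5a3 had 33.3, 33.2 and 30.2 CPM at 8 weeks, against 55.0 and 46.1 CPM at 4 weeks (−0.65, standard error 0.11, adjusted p = 0.00224). The type V genes were tighter than those of type I among the 8-week libraries: the highest value was 1.05 times the lowest for Col5a1 and 1.76 times for Col1a1.

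Col11a1 had 12.6, 10.5 and 8.18 CPM at 8 weeks, against 27.4 and 39.1 CPM at 4 weeks (−1.67, standard error 0.19, edgeR adjusted p = 0.000388). Col24a1 had 5.91, 5.05 and 5.42 CPM at 8 weeks, against 6.90 and 6.38 CPM at 4 weeks, without overlap, but did not pass the test (−0.28, standard error 0.13, adjusted p = 0.156). Col27a1 overlapped, with 1.32, 1.66 and 1.35 CPM at 8 weeks, against 2.04 and 1.60 CPM at 4 weeks (−0.34, standard error 0.21, adjusted p = 0.288).

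**Figure D3:**
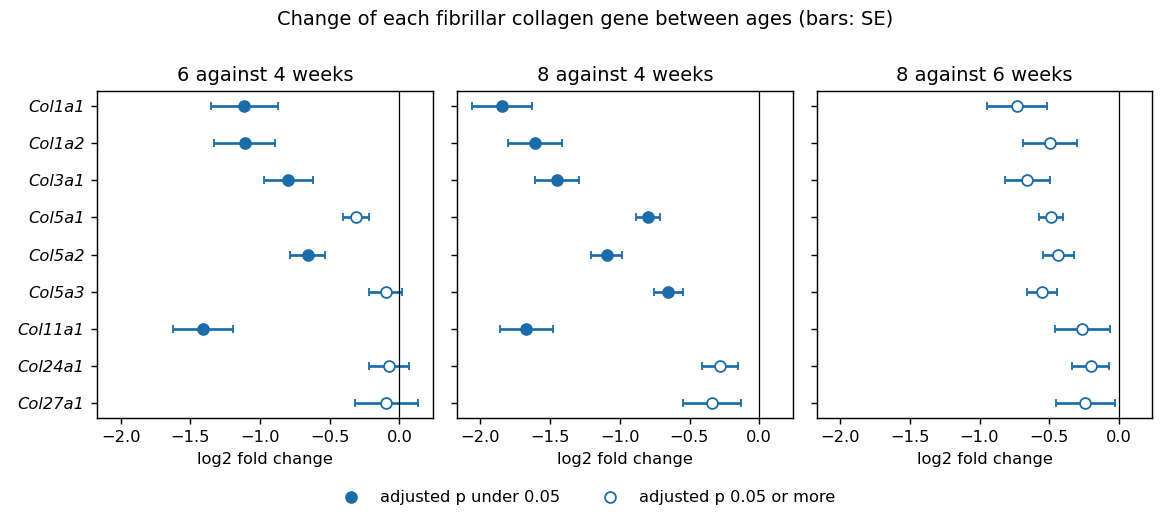
Log2 fold change of each gene with its standard error in each of the 3 comparisons of ages, filled where the edgeR adjusted p was under 0.05. Filled points number 5 for 6 against 4 weeks, 7 for 8 against 4 weeks and 0 for 8 against 6 weeks, and all points lie left of 0.

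Between 6 and 8 weeks, none of the 9 genes passed edgeR's test, against 0.147% of all genes called lower and 0.0267% called higher. All 9 changes were below 0 and 6 members had an unadjusted p under 0.05, as had 1835 of all genes. By DESeq2's Wald test 4 members were called lower (Col3a1, Col5a1, Col5a2 and Col5a3) and by limma-voom 0. The lowest adjusted p by edgeR was that of Col5a1, 0.0515, for a change of −0.49 (standard error 0.09), with 60.5, 60.8 and 57.9 CPM at 8 weeks, against 82.6 and 84.9 CPM at 6 weeks. Without 8 weeks replicate 2 its adjusted p was 0.0415. Next came Col5a3, with 33.3, 33.2 and 30.2 CPM at 8 weeks, against 49.5 and 45.0 CPM at 6 weeks (−0.55, standard error 0.11, adjusted p = 0.0681). Neither gene's values overlapped between the ages, and in 7 of the 9 members every 8-week library was below both 6-week libraries, as in 13.6% of all genes. Col11a1, which had changed most by 6 weeks, overlapped here (−0.26, standard error 0.20, adjusted p = 0.636).

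The members varied in how much of their fall lay before 6 weeks. Of the log2 change between 4 and 8 weeks, 84.3% was present at 6 weeks for Col11a1, 69.2% for Col1a2, 60.3% for Col1a1 and for Col5a2, 54.8% for Col3a1, 39.0% for Col5a1 and 15.2% for Col5a3. These shares are descriptions without an error. The test of the step from 4 to 6 weeks minus the step from 6 to 8 weeks called none of the 9 by edgeR, DESeq2 or limma-voom, against 0.0935% of all genes by edgeR in either direction. At an unadjusted p under 0.05 it had 2 of the 9 members, and 1852 of all 14976 genes. Col11a1 had a difference of −1.15 on the log2 scale (standard error 0.37, unadjusted p = 0.00989, edgeR adjusted p = 0.260) and Col5a3 one of 0.45 (standard error 0.19, unadjusted p = 0.0392, edgeR adjusted p = 0.380). Differences between the genes in these shares were not tested.

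Ratios of chains within a library do not depend on the scaling between libraries. They were taken as counts of 1 gene over counts of another, without regard to length, so that only their shifts between libraries carry meaning. In all, 12 ratios were computed and tested for any difference among the 3 ages by an exact permutation over all 210 assignments of the libraries. The smallest p this design allows is 0.00952. None of the 12 passed after Benjamini-Hochberg adjustment (lowest adjusted p = 0.114), and 5 had an unadjusted p under 0.05. Pairs of ages are given as values only. Several ratios share a gene and are not independent of each other.

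Within type I collagen, Col1a1 over Col1a2 was 1.002 and 0.872 at 4 weeks, 0.897 and 0.953 at 6 weeks, and 0.741, 0.867 and 0.743 at 8 weeks. Both chains are needed in a fixed proportion in the common trimer, and the 8-week values lay below all others by a small margin (exact permutation p = 0.143, adjusted p = 0.171, n = 7). Col3a1 over Col1a1 was 1.12 and 1.08 at 4 weeks, 1.50 and 1.27 at 6 weeks, and 1.51, 1.28 and 1.60 at 8 weeks. The type III chain thus made up more of the pair in each older library, by 0.41 on the log2 scale at 8 against 4 weeks (exact permutation p = 0.114, adjusted p = 0.152, n = 7). Col3a1 over Col1a2 peaked at 6 weeks, with 1.12 and 0.940 at 4 weeks, 1.35 and 1.21 at 6 weeks, and 1.12, 1.11 and 1.19 at 8 weeks (exact permutation p = 0.0286, adjusted p = 0.114, n = 7).

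Among the type V chains, Col5a1 over Col5a2 was 0.817 and 0.797 at 4 weeks, 1.08 and 0.983 at 6 weeks, and 0.920, 0.962 and 1.11 at 8 weeks. In the main type V molecule the chain of Col5a1 outnumbers that of Col5a2, and every older library exceeded the 4-week ones (exact permutation p = 0.0857, adjusted p = 0.129, n = 7). Col5a3 over Col5a1 was 0.511 and 0.460 at 4 weeks, 0.599 and 0.530 at 6 weeks, and 0.549, 0.545 and 0.521 at 8 weeks, with the same p values. Its mean log2 change was 0.22 at 6 against 4 weeks and 0.15 at 8 against 4 weeks.

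Col5a1 over Col1a1 was 0.0989 and 0.0869 at 4 weeks, 0.201 and 0.136 at 6 weeks, and 0.181, 0.158 and 0.264 at 8 weeks. The regulatory chain was thus more abundant relative to the fibril's main chain in all 5 older libraries, by 1.08 on the log2 scale at 8 against 4 weeks (exact permutation p = 0.0762, adjusted p = 0.129, n = 7). Col11a1 over Col5a1 moved the other way, with 0.254 and 0.390 at 4 weeks, 0.131 and 0.167 at 6 weeks, and 0.208, 0.173 and 0.141 at 8 weeks. Type XI and type V chains can join in 1 molecule, and here the ratio decreased by 1.09 on the log2 scale at 6 against 4 weeks (exact permutation p = 0.0381, adjusted p = 0.114, n = 7). Against Col1a1, the ratios of Col11a1 overlapped, with 0.0251 and 0.0339 at 4 weeks, 0.0263 and 0.0227 at 6 weeks, and 0.0377, 0.0273 and 0.0374 at 8 weeks (exact permutation p = 0.305, adjusted p = 0.333, n = 7).

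Col5a2 over Col3a1, a pair of neighbouring genes, was 0.108 and 0.101 at 4 weeks, 0.124 and 0.108 at 6 weeks, and 0.130, 0.128 and 0.148 at 8 weeks (exact permutation p = 0.0476, adjusted p = 0.114, n = 7). Col24a1 over Col1a1 was 0.00634 and 0.00553 at 4 weeks, 0.0147 and 0.0105 at 6 weeks, and 0.0177, 0.0132 and 0.0248 at 8 weeks. Col27a1 over Col1a1 shifted likewise (1.56 on the log2 scale at 8 against 4 weeks, and 1.60 for Col24a1, exact permutation p = 0.0286 and adjusted p = 0.114 for each, n = 7). Neither gene passed the test against 4 weeks while Col1a1 did, and the ratio of Col24a1 to Col27a1 stayed between 3.04 and 4.47 in the 7 libraries with overlap of all ages (exact permutation p = 0.971, adjusted p = 0.971).

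**Figure D4:**
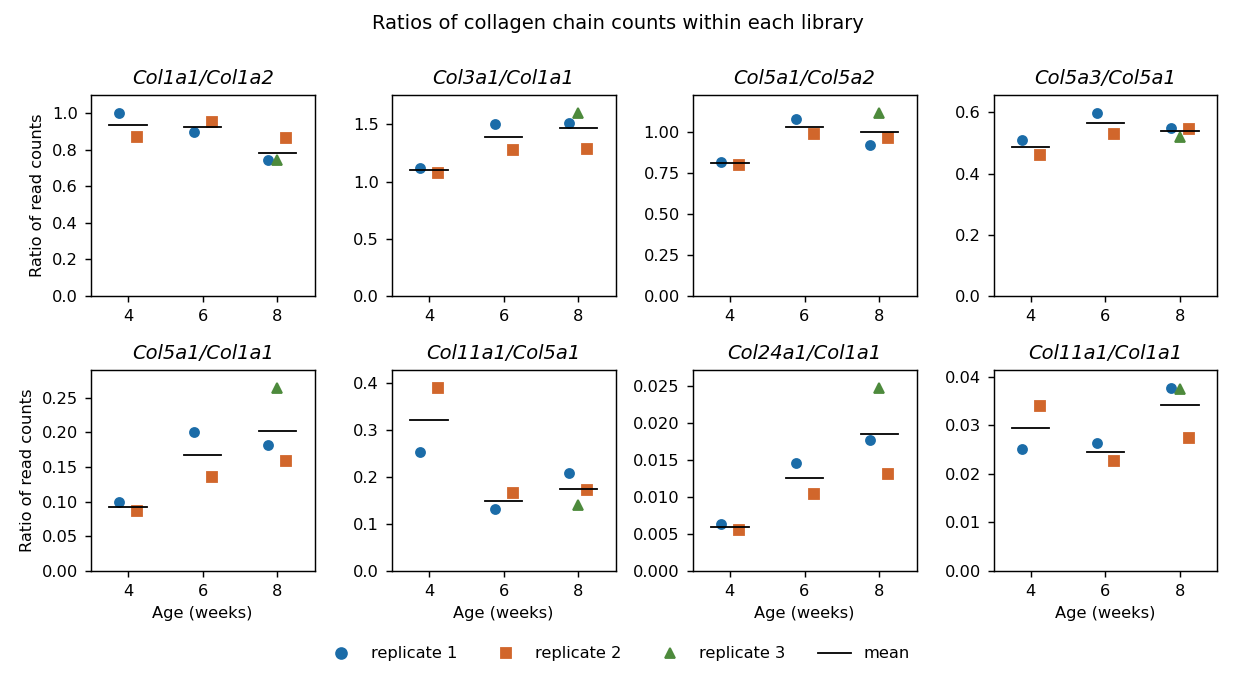
Ratio of read counts of 8 of the chain pairs in each library by age in weeks, 1 point a library with a line for the mean of the age. Each panel has its own axis from 0. Col5a1/Col1a1 is above 0.13 in all older libraries and below 0.10 at 4 weeks, while Col11a1/Col1a1 overlaps across the ages.

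The gene whose replicates lay widest apart was Col11a1 at 4 weeks (1.43-fold) and Col1a1 at 6 and 8 weeks (1.52-fold and 1.76-fold between highest and lowest). At 6 weeks, 8 of the 9 members were lower in replicate 1 than in replicate 2, Col5a1 by only 1.03-fold. The exception was Col5a3, with 49.5 CPM in replicate 1 and 45.0 CPM in replicate 2. At 8 weeks, replicate 3 was lowest for 7 members. Summed markers moved with this in part. The 8 tenocyte markers added up to 136 CPM in 8 weeks replicate 3, against 187 and 178 CPM in replicates 1 and 2, and the 15 markers of fibroblasts and fibro-adipogenic progenitors to 1053 CPM, against 1419 and 1350 CPM. At 6 weeks the same sums differed little between the replicates, with 177 and 179 CPM for tenocytes and 1294 and 1306 CPM for fibroblasts. The tenocyte sum hid opposite differences, since Egr1 had 1123 counts in replicate 1 and 804 in replicate 2, but Tnmd 319 and 601. With log2 CPM of each gene taken relative to its mean over the 7 libraries, the tenocyte median was −0.273 in replicate 1 and 0.00094 in replicate 2. For fibroblasts these medians were −0.0017 and 0.062. Their part in the differences between replicates was not tested.

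Over the 7 libraries, the genes outside the members whose log2 CPM followed Col1a1 most closely were Mylpf, Cdkn1c, Nono, Casq2 and Capn6 (Pearson r of 0.986 to 0.998, among 7669 genes with a mean of at least 5 CPM). Mylpf encodes a light chain of fast myosin, with 8402, 6057 and 4883 CPM on average at 4, 6 and 8 weeks, and Cdkn1c a cell cycle inhibitor. Those nearest to Col11a1 were Cnn3, Mfap4, Postn, Matn2 and Ikbip (r of 0.994 to 0.995). Of these, Mfap4, Postn and Matn2 encode proteins of the extracellular matrix. Those nearest to Col27a1 were Stub1, Bloc1s6, Minpp1, Atp6v0b and Lzts2 (r of 0.955 to 0.978). Among the members, Col3a1 (0.994), Col1a2 (0.990) and Col5a2 (0.986) were nearest to Col1a1 and Col27a1 (0.738) farthest. These coefficients describe 7 libraries of 3 ages, and those of genes that changed share the difference between the ages. They are also the highest picked from 7669 genes, and such a pick gives high r among unrelated genes too. This limit weighs most on Col27a1, which had 42 to 77 counts per library and was not called in any comparison. The coefficients were not tested.

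The other fibrillar collagen genes, known mainly from cartilage, fell as well. Per kb of exon, Col11a2 averaged 3.30, 1.30 and 1.01 CPM per kb at 4, 6 and 8 weeks, against 2.61, 0.982 and 0.818 for Col11a1. Scaled by the longest transcript the order was reversed, with 3.75, 1.48 and 1.14 for Col11a2, against 4.335, 1.63 and 1.36 for Col11a1. Col2a1 averaged 0.501, 0.132 and 0.0775 CPM per kb of exon. Col2a1, the type II chain, had 0.836 and 1.61 CPM at 6 weeks, against 4.03 and 5.23 CPM at 4 weeks (−1.90, standard error 0.30, edgeR adjusted p = 0.00770). At 8 weeks it had 0.836, 0.832 and 0.481 CPM (−2.68 against 4 weeks, standard error 0.28, adjusted p = 0.000260). Col11a2, which encodes another type XI chain, had 7.61 and 10.3 CPM at 6 weeks, against 19.3 and 26.0 CPM at 4 weeks (−1.34, standard error 0.27, adjusted p = 0.0186). At 6 against 4 weeks both calls were lost without 4 weeks replicate 2 or 6 weeks replicate 1 (adjusted p up to 0.0819 for Col2a1 and 0.180 for Col11a2 by edgeR), that of Col11a2 also without 6 weeks replicate 2, whereas both passed at 8 against 4 weeks with each library left out. The cartilage and bone list held few reads. Of its 10 genes, 6 were tested, with a sum of 4.05 to 4.21 CPM at 6 weeks, against 6.95 to 9.74 CPM at 4 weeks. Of the list, Col10a1 and Bglap were at 0 in 5 of the 7 libraries and Ibsp in 4, whereas Runx2 had 8 to 24 counts and Sox9 17 to 50. Between 4 and 8 weeks, 3 of the 6 were called lower (Col2a1, Acan and Matn3) and 1 higher (Col9a1). Of all genes, 8.95% were called lower and 9.5% higher. Col9a1 had 20 and 14 counts at 4 weeks, and 54, 56 and 39 at 8 weeks.

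A collagen chain must be hydroxylated, folded, trimmed and cross-linked, and the enzymes and chaperones for this were followed as a list of 30 genes, of which 29 were tested. Between 4 and 6 weeks, 12 fell and none rose, with a median of −0.58 on the log2 scale, where all genes had −0.01. For this list and those below, 3.85% of all genes were called lower and 3.29% higher between 4 and 6 weeks. These shares were 8.95% and 9.5% between 4 and 8 weeks, and 0.147% and 0.0267% between 6 and 8 weeks. Of all 14976 genes, 3540 had an unadjusted edgeR p under 0.05 at 6 against 4 weeks and 1835 at 8 against 6 weeks. Serpinh1, the collagen chaperone HSP47, averaged 50.8 CPM at 6 weeks and 127 CPM at 4 weeks (−1.33, edgeR adjusted p = 0.000459). The cross-linking oxidases Lox (−1.44, adjusted p = 0.0109) and Loxl2 (−0.86, adjusted p = 0.00770) fell with it. Between 4 and 8 weeks 18 fell and 1 rose (Mia3, which helps large cargo such as procollagen leave the endoplasmic reticulum), with a median of −0.69. Between 6 and 8 weeks none was called by edgeR, 11 had an unadjusted p under 0.05, and Serpinh1 had a change of 0.01 (adjusted p = 0.976). The 12 at 6 weeks became 1 without 4 weeks replicate 2 or without 6 weeks replicate 1, and 5 without the other library of either age, and the 18 at 8 weeks became 10 without 4 weeks replicate 2, where the rise of Mia3 was lost as well. Serpinh1 passed with each library left out in both comparisons with 4 weeks, while at 6 weeks Lox and Loxl2 did not pass without 4 weeks replicate 2 or 6 weeks replicate 1 (adjusted p up to 0.107 for Lox and 0.102 for Loxl2 by edgeR).

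Proteins that sit on the fibril surface were followed as 16 genes, of which Dcn, Fmod, Lum and Kera also stand in the marker lists. Between 4 and 6 weeks 8 fell and 1 rose, with a median of −0.63. Postn, a matrix protein that binds collagen, averaged 20.6 CPM at 6 weeks and 79.6 CPM at 4 weeks (−1.95, edgeR adjusted p = 0.00308). Col12a1, a collagen on the surface of type I fibrils (−1.31, adjusted p = 0.00550), and Kera, the proteoglycan keratocan (−1.09, adjusted p = 0.00714), also fell, whereas Prelp was the gene that rose, a call that was lost without 6 weeks replicate 1 or without either 4-week library. Between 4 and 8 weeks 9 fell and 1 rose, with a median of −0.93. Between 6 and 8 weeks none of the 16 was called by edgeR and 3 had an unadjusted p under 0.05. The 8 at 6 weeks became 2 without 4 weeks replicate 2 and 1 without 6 weeks replicate 1, where Postn still passed, while the 9 at 8 weeks were 9 to 11 with any 1 library left out.

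Of the receptors and enzymes of turnover, 15 of 18 genes were tested and 3 fell between 4 and 6 weeks and none rose (median −0.34), namely Timp1, an inhibitor of matrix proteases (−1.91, edgeR adjusted p = 0.0101), and the collagen receptor subunits Itga1 (−0.61, adjusted p = 0.0150) and Itga2 (−1.20, adjusted p = 0.0236). Between 4 and 8 weeks 5 fell. None of the 3 passed at 6 weeks without 4 weeks replicate 2 or 6 weeks replicate 1, and 1 did without 6 weeks replicate 2, and the 5 became 1 without 4 weeks replicate 2 and 3 without 4 weeks replicate 1.

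Of 20 regulators of collagen genes, such as the TGF-beta ligands, Smad proteins and subunits of the factor NF-Y, none was called by edgeR between 4 and 6 weeks (median 0.07) and 2 had an unadjusted p under 0.05, and the summed level was 493 to 495 CPM at 6 weeks, against 454 to 456 CPM at 4 weeks. The smallest p belonged to Ybx1, with a change of 0.29 (adjusted p = 0.149). Between 4 and 8 weeks 1 of the 20 fell and 2 rose, against 8.95% and 9.5% of all genes, so that these counts are near the background. Tgfb3 and Smad4 rose (Smad4 by 0.64, adjusted p = 0.00158, and Tgfb3 by 0.34, adjusted p = 0.0465, a call that 6 of 18 alternatives gave) and Ctgf, a secreted matrix protein induced by TGF-beta, fell by 0.90 on the log2 scale (adjusted p = 0.00588). Ctgf also fell between 6 and 8 weeks (−1.31, edgeR adjusted p = 0.0154). Its calls were lost without 4 weeks replicate 2 for 8 against 4 weeks (adjusted p = 0.0672 by edgeR) and without 6 weeks replicate 2 or 8 weeks replicate 1 for 8 against 6 weeks. No other gene of the receptors or the regulators was called by edgeR in that comparison, where 1 and 5 of them had an unadjusted p under 0.05.

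Marker lists of the cells a whole muscle holds were read beside the collagens. Between 4 and 6 weeks, 3 of the 15 fibroblast and fibro-adipogenic progenitor markers fell (Cd34, Thy1 and Mfap5) and Gsn rose, with a median of −0.22 on the log2 scale. Their summed level was 1294 to 1306 CPM at 6 weeks, against 1091 to 1145 CPM at 4 weeks, a sum in which Gsn took 635 and 590 CPM at 6 weeks, against 375 and 398 CPM at 4 weeks. Of 8 tenocyte markers, 4 fell (Mkx, Tnmd, Thbs4 and Kera), and their sum was 177 to 179 CPM at 6 weeks, against 225 to 257 CPM at 4 weeks. The fibroblast sum thus went against the median of its own list. Of 8 endothelial markers 5 fell, with 172 to 175 CPM at 6 weeks, against 234 to 261 CPM at 4 weeks. Of 7 cell cycle genes tested 4 fell, with 13.5 to 13.7 CPM at 6 weeks, against 21.6 to 33.4 CPM at 4 weeks, and Birc5 of that list was at 0 in 1 library. Of 6 erythroid genes 3 fell, with 72.2 to 103 CPM, against 139 to 166 CPM. Smooth muscle, macrophage, Schwann cell and satellite cell lists had 1 lower gene each, and no gene of the 11 muscle fiber or 5 adipocyte markers was called by edgeR (2 and 1 had an unadjusted p under 0.05). Without 4 weeks replicate 2 or without 6 weeks replicate 1, 0 fibroblast, tenocyte and endothelial markers were called lower in this comparison.

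Between 4 and 8 weeks the fibroblast list had 5 lower and 1 higher gene, a median of −0.28, and a sum of 1053 to 1419 CPM at 8 weeks, against 1091 to 1145 CPM at 4 weeks. The tenocyte list had 3 lower genes, with 136 to 187 CPM at 8 weeks, against 225 to 257 CPM at 4 weeks. Of the 7 cell cycle genes tested 6 fell, with 14.3 to 14.7 CPM at 8 weeks, against 21.6 to 33.4 CPM at 4 weeks. Of the 6 erythroid genes 5 fell, with 85.2 to 92.5 CPM at 8 weeks, against 139 to 166 CPM at 4 weeks. The endothelial list had 4 lower genes and 1 higher (Vwf), with 170 to 208 CPM at 8 weeks, against 234 to 261 CPM at 4 weeks, and of the muscle fiber markers 1 fell (Mylpf). The part of tendon, vessel, blood, dividing and muscle fiber cells in the fall of the collagens was not tested.

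Promoter sequences, 250 bases before the gene start from RefSeq (GRCm38.p6), were available for 7 of the 9 members and were searched for 4 motifs on both strands. CCAAT was found in 3 of the 7 (Col1a2, Col5a3 and Col11a1), where 33.8% of all 32851 promoters of the same length hold it, and GGGCGG in 5 of the 7, where 32.7% of all do. TATAAA was found in Col3a1 only of the 7 (12.4% of all) and TGACGTCA in none (1.55% of all). The windows of Col1a2 and Col3a1 are shown because these genes fell together in both comparisons with 4 weeks and yet hold different motifs, with the motifs found in capitals.

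Col1a2, chr6:4505368-4505617, plus strand: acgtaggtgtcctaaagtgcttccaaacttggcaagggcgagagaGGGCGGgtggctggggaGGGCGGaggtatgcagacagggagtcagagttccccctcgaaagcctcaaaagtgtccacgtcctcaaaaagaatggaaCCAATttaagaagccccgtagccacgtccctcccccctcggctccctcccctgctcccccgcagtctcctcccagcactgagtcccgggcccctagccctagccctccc
Col3a1, chr1:45311288-45311537, plus strand: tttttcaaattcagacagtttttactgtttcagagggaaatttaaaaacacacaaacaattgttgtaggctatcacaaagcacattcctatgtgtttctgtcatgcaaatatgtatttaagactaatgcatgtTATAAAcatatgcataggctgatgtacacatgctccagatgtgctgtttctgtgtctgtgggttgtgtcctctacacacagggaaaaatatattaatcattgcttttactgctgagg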

How the data were processed

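RNA-seq of gastrocnemius from male C57BL/6J mice gave 7 libraries, each from 1 mouse. The authors trimmed single-end reads, mapped them to GRCm38 (STAR) and summed those in exons by strand and gene name (featureCounts). The deposited counts, which are not normalized, were the starting point here. The authors' fold changes, p-values, normalized values and pathway tables were not used. All 7 library columns were mapped to samples by name. Dates stood in place of 26 gene symbols, and these were not named.

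The main test was that of edgeR 4.0.16 under R 4.3.3 (filterByExpr with a minimum count of 10, TMM, quasi-likelihood F test, 1 model with a mean for each age, Benjamini-Hochberg adjustment over 14976 genes, threshold 0.05). The standard error is the size of the log2 fold change over the square root of F. CPM use the TMM factors, and log2 CPM a prior count of 2. Chain ratios had 0.5 added to each count on the log2 scale. Gene models are from GENCODE M21 and promoters from RefSeq. DESeq2 1.42.0 and limma 3.58.1 served as alternatives, beside other scaling and filters, a block for the replicate number and each library left out. Figures were drawn with matplotlib 3.10.9 in Python 3.11.15.

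The depth was 30836057 to 41784144 counts per library. In simulated data the test found 16.4% of 1.5-fold, 76.1% of 2-fold and 90.9% of 3-fold changes for 6 against 4 weeks.

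The members, gene lists and alternatives were chosen with earlier results of these data known. Named genes are all members, Col2a1 and Col11a2, up to 3 genes of each list with the smallest p for 6 against 4 weeks, and the 5 genes most like each of Col1a1, Col11a1 and Col27a1. Others (mt-Rnr2, Gm47302, Prelp, Mia3, Tgfb3 and the called or zero-count markers) were named after their values were seen.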

Additional observations from a re-analysis of the deposited data

How the results depend on the processing

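The 7 members called lower for 8 against 4 weeks were the same under all 18 alternatives. For 6 against 4 weeks the count of 5 became 1 with no filter on low counts, 4 with library totals or robust edgeR and 6 with only the ages compared, and leaving out 1 library gave 0 to 6. For 8 against 6 weeks the count of 0 became 1 with DESeq2 size factors, upper quartile factors or without the 10 genes with most counts, 2 with library totals, 4 with DESeq2's Wald test and 0 to 1 with 1 library left out.

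Replicate numbers were not taken as pairs in the main test. The correlations of same-numbered deviations from the age means ran from −0.0927 to 0.0428. With 2 libraries at an age the deviations mirror each other, so few of these values are independent. They cannot show whether same-numbered mice shared a litter or batch. With a replicate block the member count was 2 for 8 against 6 weeks and did not change in the other comparisons. For 6 against 4 weeks 783 genes were lower and 800 higher, where the fit without a block had 577 and 493. Only 8 weeks replicate 3 carried the number 3, so the block in effect removed that library from the fit. Leaving it out without a block gave 810 lower and 807 higher, so the gain cannot be credited to the blocking. For 8 against 6 weeks the block gave 80 lower and 44 higher, against 22 and 4. The block form of the ratio test left out 8 weeks replicate 3 and had 36 assignments. Its exact permutation p cannot fall below 0.167, so no ratio could pass, and the lowest adjusted p was 0.333.

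Over all genes, the fit of only the ages compared called 941 lower and 944 higher for 6 against 4 weeks, no filter 111 and 92, library totals 346 and 234, and leaving out 1 library 25 to 810 lower and 17 to 807 higher. For 8 against 4 weeks library totals called 2000 lower and 446 higher, against 1341 and 1422, no filter 889 lower and 888 higher, and leaving out 1 library 418 to 1262 lower and 392 to 1291 higher. For 8 against 6 weeks DESeq2's Wald test called 109 lower and 54 higher, library totals 92 and 3, upper quartile factors 43 and 12, DESeq2 size factors 37 and 7, no filter 8 and 0, leaving out the 10 genes with most counts 39 and 7, limma-voom 22 and 7, robust edgeR 29 and 8, only the ages compared 26 and 1, and leaving out 1 library 9 to 56 lower and 0 to 24 higher.

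The gene lists were put through the same alternatives, a step chosen after seeing the data. For 6 against 4 weeks the 12 lower processing genes became 7 with library totals, 3 with no filter and 1 to 15 with 1 library left out, the 8 fibril partners 4 with no filter and 1 to 11 with 1 left out, and the 3 receptors and turnover genes 1 with no filter and 0 to 3 with 1 left out. For 8 against 4 weeks the 18 processing genes became 10 to 18 with 1 library left out, the 5 receptors and turnover genes 8 with library totals, 3 with no filter and 1 to 7 with 1 left out, and the 1 regulator 0 to 1 with 1 left out.

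Changes that missed the threshold turned sign in a few settings, and the range over the omission of 1 library is given for each. For 6 against 4 weeks Col5a3 ran from −0.22 to 0.039 and Col27a1 from −0.26 to 0.099, with the positive values without 4 weeks replicate 1. In the test between steps Col1a1 ran from −1.04 to 0.17 and Col3a1 from −0.52 to 0.21, with the positive values without 6 weeks replicate 1, and Col3a1 had 0.030 with library totals. The log2 ratio at 8 against 4 weeks ran from −0.0026 to 0.43 for Col11a1/Col1a1 and from −0.072 to 0.21 for Col24a1/Col27a1. The causes were not tested. With 2 or 3 mice an age and 4 residual degrees of freedom, most changes of 1.5-fold in simulated data were missed.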
